A study of Mus musculus with 8 samples.

Results

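The primitive erythroid transcription factor network is represented here by 10 genes, Gata1, Gata2, Klf1, Tal1, Lmo2, Gfi1b, Nfe2, Zfpm1, Hemgn and Lyl1, taken by name from the 55422 features counted in each library. Their unique molecular identifiers (UMIs, 1 for each captured transcript molecule) were followed in 8 single-cell RNA-seq libraries of sorted cells from mouse chimaeras. Tet-TKO cells descend from 1 ES cell line that lacks functional Tet1, Tet2 and Tet3, the enzymes that oxidise 5-methylcytosine, has a mixed C57BL/6J-129Sv background and carries a ubiquitous tdTomato reporter. WT host cells are the tdTomato- cells of the C57BL/6J blastocysts into which the ES cells were injected, so that genotype cannot be told apart from strain or ES cell origin. The E8.5 stage is covered by 4 Tet-TKO libraries, with 2 of WT host origin beside them, and the E7.5 stage by a single library for each. Embryos of a chimaera experiment were pooled before sorting, and no label ties a library to single embryos, so p-values measure the spread between libraries, which may be technical.

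Primitive erythrocytes are the first blood cells of the mouse embryo and form in the yolk sac from mesodermal haematoendothelial progenitors that also give rise to endothelium. In erythroid cells Gata1 and Tal1 occupy the same regulatory elements in a complex that the adaptor Lmo2 holds together, with Zfpm1 (FOG-1) as the partner of Gata1 and Gfi1b as a repressor in the same cells. Klf1, a zinc finger factor that binds CACCC motifs, activates globin and haem genes, and Gata2 is the GATA factor of earlier progenitors that Gata1 replaces as cells mature. Nfe2 is the erythroid partner of small Maf proteins, Lyl1 is the closest relative of Tal1, and Hemgn is a nuclear protein of haematopoietic cells that is transcribed under GATA1. The comparison of Tet-TKO with WT host cells addresses how these genes are transcribed in blood cells that form without TET enzymes.

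Libraries held 65601218 to 136982886 UMIs. After filtering, the E8.5 Tet-TKO libraries kept 7045, 9552, 2304 and 1012 cells with median depths of 18763, 12176, 40386.5 and 68704 UMIs, against 8260 and 9038 WT host cells at 15228 and 13663.5 UMIs. Tet-TKO libraries 3 and 4 therefore stood apart, with fewer and deeper cells. Any pair of libraries shared at most 28 barcodes, or up to 0.434% of the smaller library. The tdTomato transcript was at 71.5 to 144 CPM (UMIs of the gene per 1000000 UMIs) in the 5 Tet-TKO libraries and at 0.444 to 0.938 CPM in the 3 WT host libraries. Over both stages, Tet1 was at 9.93 to 20.9 CPM in Tet-TKO and 20.4 to 27.6 CPM in WT host libraries. Tet2 was at 2.50 to 10.5 and 2.96 to 4.67 CPM, and Tet3 at 9.51 to 37.5 and 14.1 to 23.2 CPM. At E8.5, Tet2 was at 5.99, 5.55, 10.5 and 9.71 CPM in Tet-TKO libraries 1 to 4, all above 4.67 and 4.63 CPM in WT host libraries. Tet-TKO libraries 3 and 4 lay above libraries 1 and 2 for Tet1, Tet2 and Tet3. Counts from 3′ ends cannot tell an intact from a truncated transcript, so the Tet levels do not check the labels.

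Cells were grouped by clustering without the members, and groups were named from marker genes that exclude them. The blood progenitor-like class was led by Hbb-bh0, Rab27b and Myb. The erythroid-like class joined clusters 0, 34, 43 and 44, whose adult-type and embryonic globins and Blvrb were raised. Cluster 15 had raised markers of both and stayed without a name. The haematoendothelial progenitor-like class was led by Gja4 and Etv2, and the endothelium-like class by Lyve1 and Cdh5. Tet-TKO libraries 1 to 4 held 227, 312, 39 and 19 blood progenitor-like cells, WT host libraries 1 and 2 held 86 and 35. For erythroid-like cells these numbers were 9, 40, 13 and 7 against 854 and 1997, and for cluster 15 they were 10, 38, 14 and 1 against 553 and 374. As shares of the cells of each library, blood progenitor-like cells were 3.22%, 3.27%, 1.69% and 1.88% against 1.04% and 0.387%. Erythroid-like cells were 0.128%, 0.419%, 0.564% and 0.692% against 10.3% and 22.1%.

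The start regions of 4 members are shown first, because GATA letters are one of the few features of the members that can be read without their expression. The RefSeq annotation of GRCm38.p6 gave 10 start regions, 250 bases before to 50 bases after a start site, for 8 members; Lmo2 and Nfe2 had no entry. The 4 sequences below run 5′ to 3′ on the strand of the gene, and capitals mark GATA letters, here GATA after A or T and before A or G on either strand. Klf1 is at chr8:84901732-84902031 (+), Gfi1b at chr2:28621933-28622232 (-) and Hemgn at chr4:46404134-46404433 (-). Gata1, at chrX:7967861-7968160 (-), is shown as a start region without these letters.
Klf1: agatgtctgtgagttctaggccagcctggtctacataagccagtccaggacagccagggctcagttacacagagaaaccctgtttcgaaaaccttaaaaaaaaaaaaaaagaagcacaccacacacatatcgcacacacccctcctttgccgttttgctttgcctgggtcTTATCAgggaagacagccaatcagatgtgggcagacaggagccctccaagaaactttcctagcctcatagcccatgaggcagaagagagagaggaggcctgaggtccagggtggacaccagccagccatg
Gfi1b: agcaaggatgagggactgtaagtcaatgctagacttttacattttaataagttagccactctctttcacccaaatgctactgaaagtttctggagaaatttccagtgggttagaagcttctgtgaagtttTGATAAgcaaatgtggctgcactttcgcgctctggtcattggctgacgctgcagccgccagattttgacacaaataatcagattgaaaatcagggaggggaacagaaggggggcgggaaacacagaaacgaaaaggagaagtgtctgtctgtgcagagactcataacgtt
Hemgn: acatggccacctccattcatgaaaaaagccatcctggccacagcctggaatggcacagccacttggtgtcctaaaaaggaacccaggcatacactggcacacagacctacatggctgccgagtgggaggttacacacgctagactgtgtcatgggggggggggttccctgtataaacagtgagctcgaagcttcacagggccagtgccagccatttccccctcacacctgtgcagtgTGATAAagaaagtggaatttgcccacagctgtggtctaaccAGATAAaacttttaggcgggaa
Gata1: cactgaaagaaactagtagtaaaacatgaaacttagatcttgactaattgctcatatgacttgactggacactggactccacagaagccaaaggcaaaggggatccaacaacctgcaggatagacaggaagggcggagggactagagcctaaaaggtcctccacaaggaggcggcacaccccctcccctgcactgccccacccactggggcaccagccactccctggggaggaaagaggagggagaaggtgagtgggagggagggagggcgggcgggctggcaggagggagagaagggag

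The GATA letters stood in 4 of the 10 start regions (Klf1, Tal1, Gfi1b and Hemgn), against 29.8% of all 32851 start regions. They began 80 bases before the start site in Klf1 (position -80), at -205 in Tal1, at -120 in Gfi1b, and at -13 and 28 in Hemgn. The longer CACCC-type pattern CCNCNCCC, on either strand, was in 8 of 10 start regions, against 49.5% of all. It had no match in the window of Klf1, which does hold the shorter letters CACCC. E-box letters (CAGCTG, or CAGATG on either strand) were in 4 of 10, against 30.6% of all. The start regions also differed in CG dinucleotides, the sites of DNA methylation that TET enzymes act on. Klf1 had 3, Gata1 and Hemgn had 4, Gfi1b and Lyl1 had 7, and the regions of Tal1, Gata2 and Zfpm1 had 11 to 37, around a median of 7 over all start regions (quartiles 3 and 20). A match describes the letters only, and no binding or methylation was measured here.

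On the mm10 genome all 10 members are protein-coding genes: Gata1 at chrX:7959260-7978071, Gata2 at chr6:88193891-88207032, Klf1 at chr8:84901928-84905291, Tal1 at chr4:115056426-115071755, Lmo2 at chr2:103957986-103981878, Gfi1b at chr2:28609450-28621982, Nfe2 at chr15:103248212-103258403, Zfpm1 at chr8:122282141-122337251, Hemgn at chr4:46393989-46413506 and Lyl1 at chr8:84701457-84704715. Zfpm1 overlaps Gm20388 on the same strand, and how reads common to both were counted was not tested. Lmo2 and Lyl1 overlap 4931422A03Rik and Nfix on the opposite strand.

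In E8.5 WT host cells the members fell into distinct patterns over the classes, given here as the levels of libraries 1 and 2. Gata1 was near 0 in haematoendothelial progenitor-like cells, at 3.95 and 3.43 CPM, and high in all later blood cells, at 134 and 156 CPM in blood progenitor-like cells, 152 and 150 CPM in cluster 15 and 123 and 115 CPM in erythroid-like cells. The first 2 of these overlapped, and erythroid-like cells lay below both. CPM is per total UMIs, globin included. Globins took a median of 10.7% and 16.2% of the UMIs of a WT host erythroid-like cell, against 1.19% and 1.64% in blood progenitor-like cells. The part of this in the lower erythroid-like levels was not tested. Klf1 was at 4.17 and 5.14 CPM in haematoendothelial progenitor-like cells, 82.3 and 72.5 CPM in blood progenitor-like cells, 147 and 157 CPM in cluster 15 and 159 and 165 CPM in erythroid-like cells, an order in which no neighbours overlapped. Hemgn followed the same order with a later start, at 1.32 and 2.85 CPM, then 2.80 and 3.72 CPM, 31.1 and 38.1 CPM, and 90.0 and 137 CPM; its first 2 classes overlapped. Gata2 ran the other way, from 45.6 and 47.4 CPM in haematoendothelial progenitor-like cells through 12.3 and 18.6 CPM and 4.84 and 7.44 CPM to 2.67 and 2.24 CPM in erythroid-like cells, with no overlap between neighbours.

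The remaining 6 members were less confined. Lmo2 and Tal1, which endothelial precursors also use, were already high in haematoendothelial progenitor-like cells. Lmo2 was at 332 and 406 CPM there, 396 and 420 CPM in blood progenitor-like cells, 330 and 334 CPM in cluster 15 and 182 and 154 CPM in erythroid-like cells, so that erythroid-like cells were lowest. Tal1 was at 143 and 158 CPM, 115 and 108 CPM, 116 and 124 CPM, and 88.2 and 100 CPM in the same order, again with the lowest values in erythroid-like cells. Gfi1b was at 0.878 and 1.14 CPM in haematoendothelial progenitor-like cells and at 40.9 to 58.1 CPM in the 3 blood classes. Blood progenitor-like cells (54.8 and 40.9 CPM) overlapped the other two, whereas cluster 15 (54.8 and 58.1 CPM) lay just above erythroid-like cells (54.2 and 53.0 CPM). Nfe2 was at 1.10 and 0.285 CPM before blood formation, highest in blood progenitor-like cells, at 48.1 and 65.0 CPM, and at 30.9 to 39.8 CPM in cluster 15 and erythroid-like cells, which overlapped. Zfpm1 was widely transcribed, at 50.0 and 69.1 CPM in haematoendothelial progenitor-like cells, 186 to 229 CPM in the blood classes and 69.5 and 71.8 CPM in cardiomyocyte-like cells. Lyl1 was highest in myeloid-like cells, at 66.9 and 85.2 CPM. Its levels of 41.1 and 44.1 CPM in endothelium-like and 29.1 and 43.5 CPM in erythroid-like cells overlapped, and blood progenitor-like cells had 19.0 and 26.0 CPM. These are levels in clusters and carry no test. The larger share of globin UMIs in erythroid-like cells applies to them as well, and its part was not tested.

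Over 34 classes of WT host cells, the genes most like each member in log2(CPM + 1) were found by Pearson's r. Gata1 was nearest to Cited4 (r = 0.943) and Nfe2 (r = 0.940), and Klf1 to Trim10 (0.957). Hemgn was nearest to Nxpe2 (0.978) and Ermap (0.943), Gfi1b to Treml2 (0.973) and Ikzf1 (0.971), and Nfe2 to Treml2 (0.959) and Gja6 (0.957). Tal1 was nearest to Creg1 (0.899) and Grap2 (0.888), and Lyl1 to Grap2 (0.909) and Sla2 (0.907). The genes named were less alike for Gata2 (Ssbp4, 0.835), Lmo2 (Ppp1r15a, 0.823, and Grap2, 0.816) and Zfpm1 (Abcb10, 0.832, and Atp5g3, 0.828). Among the members, r was highest between Gfi1b and Nfe2, at 0.954, and lowest between Gata2 and Hemgn, at 0.221. The classes share their libraries, and the same blood classes are high in most of these genes.

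Most members were lower in whole Tet-TKO libraries. In the summed cells of each E8.5 library, Gata1 was at 5.91, 6.03, 4.39 and 3.73 CPM in Tet-TKO libraries 1 to 4, whereas WT host libraries 1 and 2 had 33.0 and 40.9 CPM. Klf1 was at 2.27, 3.20, 2.49 and 1.87 CPM against 35.1 and 53.4 CPM, and Hemgn at 0.285, 0.512, 0.702 and 0.415 CPM against 14.3 and 38.8 CPM. The Tet-TKO libraries lay far below both WT host libraries for each of the 3 genes. Called as adjusted p of at most 0.01 and an absolute log2 fold change of at least 1 with edgeR's quasi-likelihood test, 6 of 10 members were lower and none was higher, against 2.65% of all genes tested in either direction. Gata1 fell by 2.94 (SE 0.26, adjusted p = 0.00211), Klf1 by 4.24 (SE 0.27, adjusted p = 0.00103), Hemgn by 5.89 (SE 0.46, adjusted p = 0.00147), Gfi1b by 3.11 (SE 0.40, adjusted p = 0.00654), Tal1 by 1.88 (SE 0.20, adjusted p = 0.00342) and Zfpm1 by 1.27 (SE 0.17, adjusted p = 0.00701) on the log2 scale in the edgeR fit. Nfe2 (-1.87, adjusted p = 0.0106), Lyl1 (-2.09, adjusted p = 0.0140), Lmo2 (-1.27, adjusted p = 0.0351) and Gata2 (-0.43, adjusted p = 0.181) were not called. In whole libraries, fewer cells of a type and less RNA per cell cannot be told apart. With the 4 Tet-TKO libraries summed as the pairs 1 with 2 and 3 with 4, 0 of 10 members were called. Some calls were also lost when WT host library 1 or 2 was left out. The share of all genes called in these fits is not given, so the losses are no result about the members.

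The cells that carried the transcripts differed between genotypes. In Tet-TKO libraries a mean of 72.9% of the Gata1 UMIs came from blood progenitor-like cells, 9.52% from cluster 15 and 6.86% from erythroid-like cells, whereas in WT host libraries these shares were 3.57%, 29.4% and 58.4%. Klf1 UMIs came to 56.7% from blood progenitor-like cells in Tet-TKO and to 66.9% from erythroid-like cells in WT host libraries. Zfpm1 differed in another way, since 63.8% of its UMIs in Tet-TKO but 23.9% in WT host libraries lay outside the 6 blood and endothelial classes. Of its WT host UMIs 46.8% came from erythroid-like cells, and of its Tet-TKO UMIs 21.3% came from blood progenitor-like cells. Gata2 was less bound to blood in both genotypes, and of the Gata2 UMIs 60.6% in Tet-TKO and 50.1% in WT host libraries lay outside these classes. Tal1 UMIs of Tet-TKO libraries came to 40.0% from blood progenitor-like and to 28.1% from haematoendothelial progenitor-like cells.

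**Figure D1:**
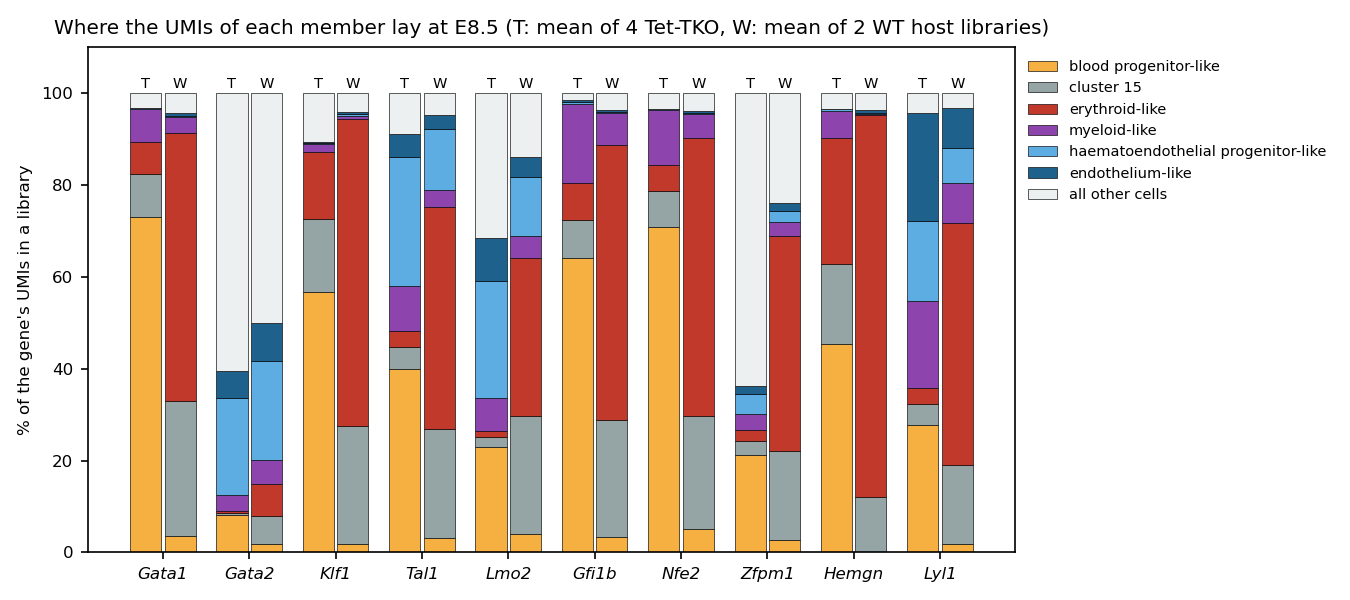
Share of the UMIs of each member (percent of its UMIs in a library, mean over 4 Tet-TKO or 2 WT host E8.5 libraries) that came from each cell class, with Tet-TKO (T) and WT host (W) bars side by side. For Gata1, 72.9% of Tet-TKO UMIs lay in blood progenitor-like cells and 58.4% of WT host UMIs in erythroid-like cells.

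In blood progenitor-like cells, the only blood class with at least 10 cells in every E8.5 library, Gata1, Klf1 and Lmo2 were lower than both WT host libraries in every Tet-TKO library, Hemgn was higher, and the other members overlapped. Gata1 was at 117, 115, 116 and 113 CPM in Tet-TKO libraries 1 to 4 (115 ± 1.73, SD, n = 4), whereas WT host libraries had 134 and 156 CPM (145 ± 15.8, SD, n = 2). Tal1 was at 118, 114, 144 and 158 CPM against 115 and 108 CPM, and Zfpm1 at 217, 240, 263 and 219 CPM against 229 and 186 CPM. Gata1 lay slightly below the WT host libraries in every Tet-TKO library, and the other 2 overlapped. Klf1 was at 39.5, 51.4, 33.1 and 45.3 CPM (42.3 ± 7.86, SD, n = 4) against 82.3 and 72.5 CPM (77.4 ± 6.94, SD, n = 2), so that every Tet-TKO library lay below both WT host libraries. Lmo2 was at 331, 304, 215 and 244 CPM against 396 and 420 CPM, and likewise did not overlap. Tet-TKO libraries 3 and 4, with fewer and deeper cells, were lower than libraries 1 and 2 for Lmo2 and Gfi1b and higher for Tal1. The part of this split between libraries in the differences from the WT host was not tested. Hemgn was low in both, at 5.59, 4.98, 5.51 and 7.06 CPM in Tet-TKO and 2.80 and 3.72 CPM in WT host libraries, the WT host values resting on 7 UMIs.

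In this class edgeR called 0 of 10 members, against 0.0715% of all 8397 genes tested, DESeq2 called 0 as well, and 3 had an unadjusted edgeR p under 0.05, against 5.26% of all genes. The largest of these differences was that of Klf1, a log2 fold change of -0.87 (SE 0.21, 95% interval -1.28 to -0.46, unadjusted p = 0.00156, edgeR adjusted p = 0.423). For Lmo2 the edgeR log2 fold change was -0.56 (SE 0.19, adjusted p = 0.879) and for Gata1 it was -0.31 (SE 0.13, adjusted p = 0.879). The intervals of Tal1 (-0.08 to 0.56) and Zfpm1 (-0.13 to 0.45) limited any difference to less than a log2 fold of 1 in either direction. Nfe2 had 58.9, 75.3, 77.2 and 73.0 CPM against 48.1 and 65.0 CPM (log2 fold change 0.39, SE 0.19), and Gfi1b 48.4, 45.8, 28.1 and 31.2 CPM against 54.8 and 40.9 CPM (-0.32, SE 0.28). For Gata2 the interval of the difference reached from -1.08 to 1, so that a difference near 1 was not detectable at this depth. Of the Tet-TKO cells of this class, 78 of 227, 181 of 312, 10 of 39 and 1 of 19 had no tdTomato UMI; their origin was not tested. When only cells whose tdTomato UMIs match their sorted fraction were kept, Klf1 was at 38.4, 48.2, 31.2 and 45.5 CPM in the 4 Tet-TKO libraries, all below 83.9 and 72.5 CPM for the WT host.

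**Figure D2:**
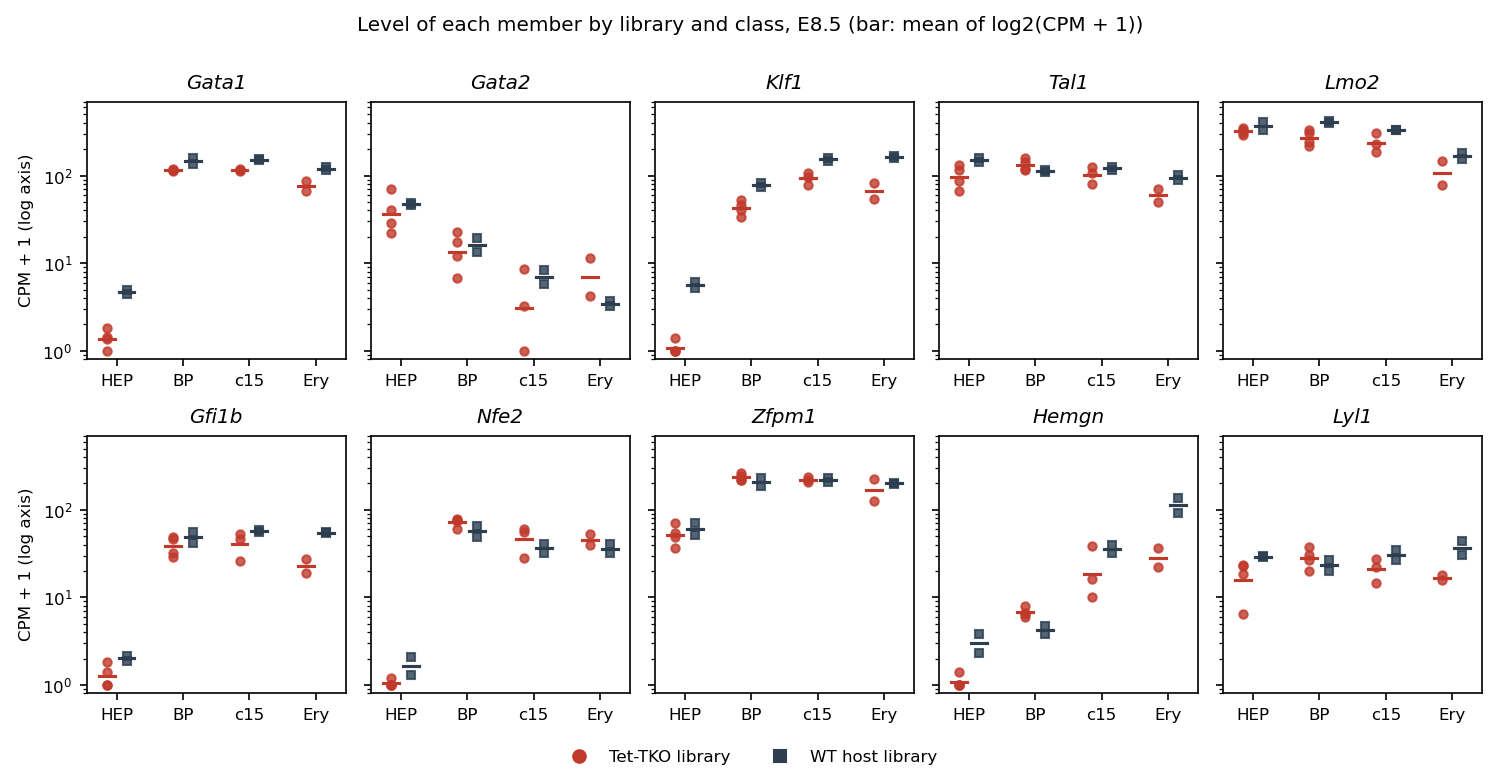
Levels of the 10 members (CPM + 1, log axis) in haematoendothelial progenitor-like (HEP) and blood progenitor-like (BP) cells, cluster 15 (c15) and erythroid-like cells (Ery) at E8.5, with 1 point for each library of at least 10 cells, coloured by genotype, and lines at the mean of log2(CPM + 1). Klf1 in blood progenitor-like cells sat between 33.1 and 51.4 CPM in the Tet-TKO libraries, below 72.5 and 82.3 CPM in the WT host libraries.

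Cells of cluster 15 had a median globin content of 5.02% to 8.47% of UMIs in Tet-TKO libraries 1 to 3, whereas WT host libraries had 5.47% and 6.61%. The direction for Klf1 was the same as in blood progenitor-like cells. Klf1 was at 96.2, 76.5 and 105 CPM in Tet-TKO libraries 1 to 3, whereas WT host libraries had 147 and 157 CPM. Gata1 was at 115, 118 and 112 CPM against 152 and 150 CPM. Neither gene overlapped between genotypes. By edgeR and by DESeq2 0 of 9 members tested were called, against 1.22% of all genes in edgeR, and 5 had an unadjusted p under 0.05, against 17% of all genes. Klf1 had a log2 fold change of -0.72 (SE 0.15, edgeR adjusted p = 0.0195) and Gata1 one of -0.41 (SE 0.13, edgeR adjusted p = 0.133). The value for Nfe2 was 0.59 (SE 0.22, edgeR adjusted p = 0.190), from 27.5, 59.7 and 54.8 CPM against 31.4 and 39.8 CPM, which overlapped. Tet-TKO cells without tdTomato UMIs were 3 of 10, 31 of 38 and 7 of 14 in this cluster, so library 2 rests largely on cells without the reporter.

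In erythroid-like cells Klf1, Gfi1b and Hemgn were lower in the 2 Tet-TKO libraries tested. The test used Tet-TKO libraries 2 and 3, with 40 and 13 cells, against both WT host libraries. Tet-TKO libraries 1 and 4 had under 10 cells. The median globin content of the cells tested was 1.79% and 7.18% of UMIs in Tet-TKO, against 10.7% and 16.2% in WT host libraries. Blood progenitor-like cells of the same Tet-TKO libraries had 1.87% and 1.24%. The class thus held cells of unlike globin content, and the part of this in the calls was not tested. Klf1 was at 52.7 and 81.5 CPM in Tet-TKO and 159 and 165 CPM in WT host libraries, Gfi1b at 26.4 and 17.9 against 54.2 and 53.0 CPM, and Hemgn at 35.6 and 21.2 against 90.0 and 137 CPM. In each of these the 2 Tet-TKO libraries tested lay below the WT host libraries. Called members were 3 of 10, all lower, against 1.89% of all genes in either direction and 0.501% lower. Klf1 fell by 1.63 (SE 0.20, edgeR adjusted p = 0.00354), Gfi1b by 1.58 (SE 0.22, edgeR adjusted p = 0.00569) and Hemgn by 2.31 (SE 0.36, edgeR adjusted p = 0.00883) on the log2 scale. The median log2 fold change of the 10 members was -1.02, against -0.00483 over all genes tested.

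Gata1, at 65.9 and 84.7 CPM against 123 and 115 CPM, had a log2 fold change of -1.004 (SE 0.16, edgeR adjusted p = 0.0110). Tal1, at 48.8 and 70.1 CPM against 88.2 and 100 CPM, had one of -1.03 (SE 0.21, edgeR adjusted p = 0.0219). In the 2 Tet-TKO libraries tested both lay below the WT host libraries without passing the threshold. Nfe2, at 38.2 and 52.1 CPM against 30.9 and 39.6 CPM, had a value of -0.01 (SE 0.27), and Gata2, at 10.5 and 3.26 CPM against 2.67 and 2.24 CPM, one of 1.25 (SE 0.57, edgeR adjusted p = 0.205). The 2 Tet-TKO libraries tested lay above both WT host libraries for Gata2, on 10 UMIs, and overlapped them for Nfe2.

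Within the erythroid-like class the genotypes held different cells, and the part of this in the values was not tested. Over all 4 libraries, 35 Tet-TKO cells of the class were in cluster 34, with a median globin content of 1.42% of UMIs, and 31 of these 35 had tdTomato UMIs. The 15 Tet-TKO cells of cluster 0 had a median globin content of 12.6%, and 3 of the 15 had tdTomato UMIs. WT host cells lay mostly in cluster 0. Within cluster 34, Klf1 was at 52.5, 27.4 and 32.9 CPM in Tet-TKO libraries 1 to 3, whereas WT host libraries had 82.0 and 102 CPM. Hemgn there was at 4.77, 3.04 and 2.35 CPM against 40.7 and 68.1 CPM. Within cluster 0, Klf1 was at 205, 205 and 189 CPM in Tet-TKO libraries 2 to 4, with 9, 4 and 2 cells, against 180 and 177 CPM in WT host libraries. The remaining Tet-TKO cells were 9 of cluster 43, with a median globin content of 0.999% and tdTomato UMIs in 2, and 10 of cluster 44, with 16.1% and tdTomato UMIs in none. Their sums were too small for a level in each library. The origin of the cells was not tested. With sums of at least 5 cells, which lets all 4 Tet-TKO libraries in, no member was called, with Klf1 at -1.20 (edgeR adjusted p = 0.0738), Gfi1b at -1.02 (edgeR adjusted p = 0.0678) and Hemgn at -2.10 (edgeR adjusted p = 0.0201). With Tet-TKO libraries summed in pairs Hemgn alone was called, at -2.24 (edgeR adjusted p = 0.00865), with Klf1 at -1.42 (edgeR adjusted p = 0.0248) and Gfi1b at -1.17 (edgeR adjusted p = 0.0118). The share of all genes called in these alternative fits is not given, so their counts of calls are no result about the members. Library 4, whose 7 cells had no tdTomato UMI and a median globin content of 15.6%, had Klf1 at 190 CPM. Gfi1b and Hemgn were each at 78.7 CPM there. Of these, Klf1 and Gfi1b lay above both WT host libraries. Library 1, with 9 cells, had Klf1 at 49.8, Gfi1b at 40.7 and Hemgn at 4.53 CPM, all below both WT host libraries.

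To set cluster borders aside, blood progenitor-like cells, cluster 15 and erythroid-like cells were summed in each of the 6 libraries. Klf1 was at 41.9, 54.2, 59.7 and 58.0 CPM in Tet-TKO and 150 and 162 CPM in WT host libraries. Hemgn was at 5.68, 9.79, 16.4 and 12.3 CPM against 61.6 and 119 CPM. Both genes were separated widely between genotypes, and both were called lower, 2 of 10 members against 3.2% of all genes. Klf1 fell by 1.77 (SE 0.14, edgeR adjusted p = 0.000321) and Hemgn by 3.33 (SE 0.36, edgeR adjusted p = 0.000898). Gata1 was at 114, 109, 109 and 109 CPM against 135 and 121 CPM (log2 fold change -0.42, SE 0.10, edgeR adjusted p = 0.0313). Nfe2 lay above the WT host values, at 56.8, 69.1, 67.2 and 70.9 CPM against 32.2 and 40.0 CPM (log2 fold change 0.65, SE 0.15, edgeR adjusted p = 0.0320). Zfpm1 was at 216, 226, 244 and 231 CPM against 201 and 208 CPM, with every Tet-TKO library above both WT host libraries, yet its fitted log2 fold change was -0.05 (SE 0.10). The scales differ: fitted fold changes use library sizes rescaled by TMM (trimmed mean of M values), and CPM is per total UMIs of the sum. Lmo2 (0.01, SE 0.23) was at 324, 277, 183 and 229 CPM against 253 and 188 CPM and Tal1 (0.08, SE 0.16) at 116, 103, 126 and 160 CPM against 101 and 104 CPM, both with overlap. Without overlap and without a call, Gata2 lay above the WT host libraries, at 20.8, 6.58, 7.46 and 14.4 CPM against 4.11 and 3.33 CPM. Gfi1b lay below them, at 48.0, 44.1, 25.5 and 33.9 CPM against 54.5 and 53.7 CPM, and was not called either. Tet-TKO blood cells were mostly blood progenitor-like and WT host blood cells mostly erythroid-like, so their median globin content differed. The part of this mix in the 2 calls was not tested.

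**Figure D3:**
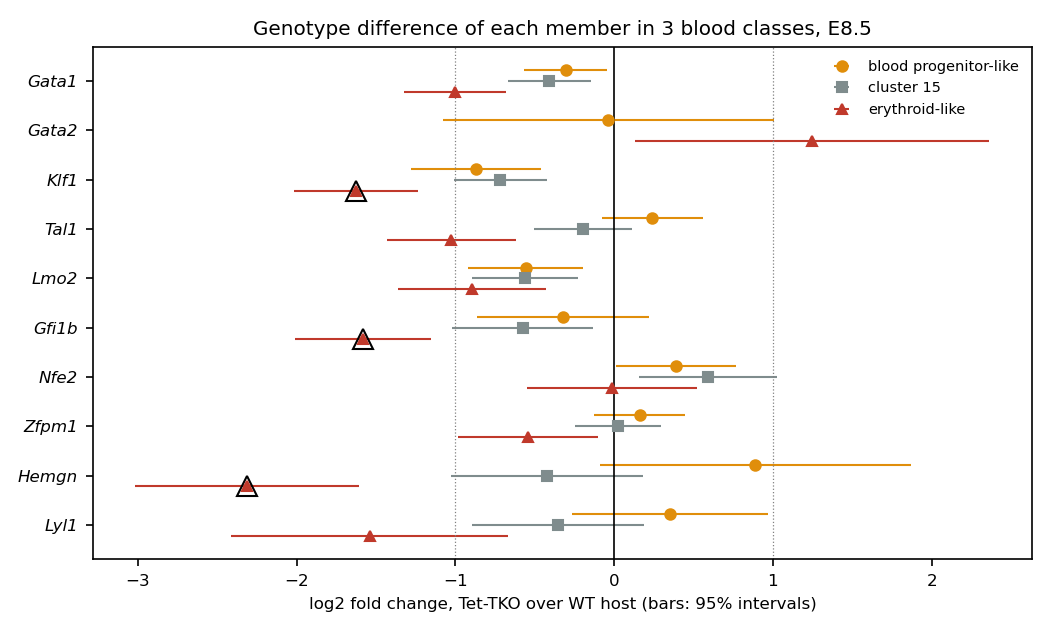
Log2 fold changes (Tet-TKO over WT host, edgeR) of the members in blood progenitor-like cells, cluster 15 and erythroid-like cells at E8.5, with bars of 95% intervals and open outlines around called members. Klf1 lay below 0 in each class, at -0.87, -0.72 and -1.63, whereas Zfpm1 and Tal1 stayed near 0 in blood progenitor-like cells.

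Blood progenitor-like and erythroid-like cells were also split by globin content, the share of UMIs from 7 globin genes. The ranges are parts of a continuum and no cell types; 779 of 3638 cells lay near a border, between 0.8% and 1.25% or between 8% and 12.5%. In cells with 1 to 10% globin, Gata1 was at 114, 115, 109 and 118 CPM in Tet-TKO and 122 and 103 CPM in WT host libraries. Klf1 was at 61.0, 60.9, 45.0 and 61.5 CPM against 125 and 118 CPM, and Hemgn at 8.77, 5.82, 5.92 and 15.2 CPM against 44.2 and 54.8 CPM. Nfe2 was at 68.2, 71.8, 78.8 and 79.9 CPM against 27.6 and 25.9 CPM. Gata1 overlapped between genotypes, whereas Klf1 and Hemgn lay below and Nfe2 above the WT host libraries in every Tet-TKO library. These last 3 of 10 members were called, against 2.35% of all genes: Klf1 fell by 1.11 (SE 0.16, edgeR adjusted p = 0.00300), Hemgn fell by 2.61 (SE 0.27, edgeR adjusted p = 0.000527) and Nfe2 rose by 1.43 (SE 0.14, edgeR adjusted p = 0.000358). With the range set on beta-chain globin genes Nfe2 was at 0.96 (edgeR adjusted p = 0.00223) and not called. Gata1 had a log2 fold change of -0.02 (SE 0.14).

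The same range held different cells in each genotype. Of the 378 Tet-TKO cells 91.0% were blood progenitor-like, with a median globin content of 2.42%, and of the 745 WT host cells 9.40% were, with a median of 6.93%; the part of this in the calls was not tested. Under 1% globin, where both genotypes were mostly blood progenitor-like (93.3% of 270 and 86.4% of 59 cells), edgeR called 0 of 9 members, against 0.0566% of all genes, with 2 at an unadjusted p under 0.05 against 3.37% of all genes. Klf1 there was at 24.4, 20.7, 13.9 and 44.6 CPM against 47.6 and 35.3 CPM, which overlapped through Tet-TKO library 4 with 6 cells (log2 fold change -1.06, SE 0.31, unadjusted p = 0.00466, edgeR adjusted p = 1). Over 10% globin, Klf1 was at 204, 226 and 177 CPM in Tet-TKO libraries 2 to 4, with 18 cells in all, and at 187 and 174 CPM in 2168 WT host cells. No test was made in this range, and 1 of its 18 Tet-TKO cells had tdTomato UMIs.

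**Figure D4:**
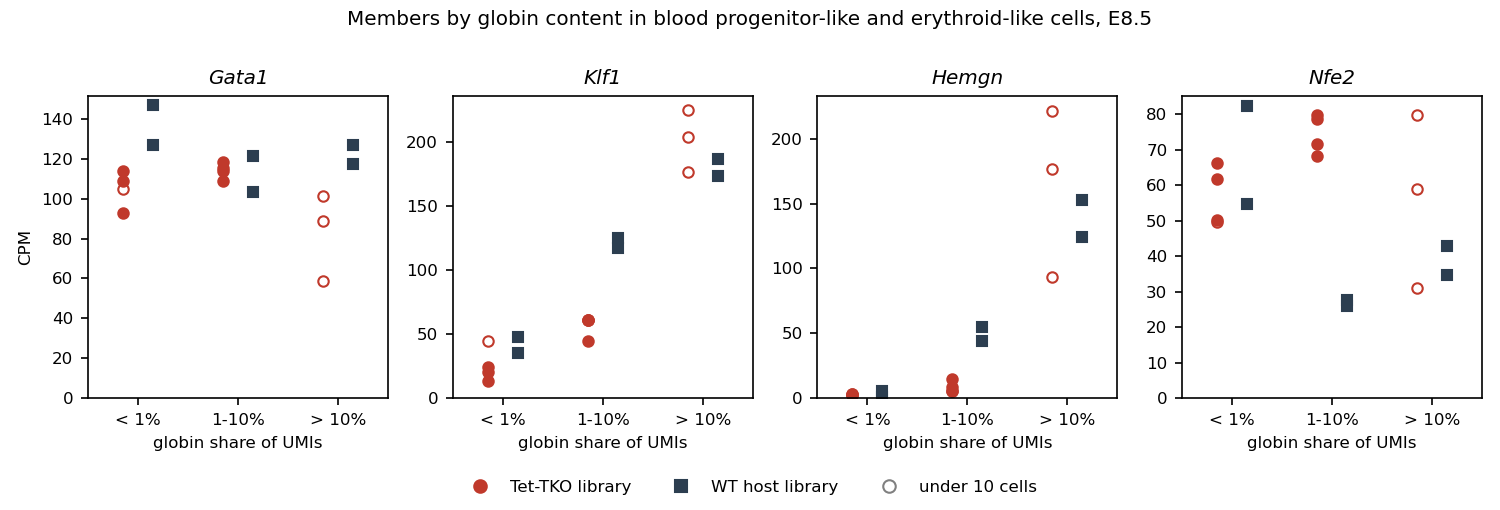
Levels of Gata1, Klf1, Hemgn and Nfe2 (CPM, 1 point for each E8.5 library, coloured by genotype) in blood progenitor-like and erythroid-like cells of 3 ranges of globin content, with open symbols for sums under 10 cells. In the range of 1 to 10% the Tet-TKO libraries sat at 45.0 to 61.5 CPM for Klf1, below 118 and 125 CPM in WT host libraries, and at 68.2 to 79.9 CPM for Nfe2, above 25.9 and 27.6 CPM.

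Before blood commitment, haematoendothelial progenitor-like cells of both genotypes held the members that precursors use. Lmo2 was at 302, 288, 352 and 335 CPM in Tet-TKO and 332 and 406 CPM in WT host libraries (log2 fold change -0.21, SE 0.12). Tal1 was at 86.1, 65.0, 115 and 133 CPM against 143 and 158 CPM, without overlap (-0.64, SE 0.21, edgeR adjusted p = 0.193). Gata2 was at 28.0, 21.3, 68.8 and 39.0 CPM against 45.6 and 47.4 CPM, and overlapped. Of 7 members tested, 1 was called, against 1.01% of all genes, and it was Klf1, which fell by 4.73 (SE 0.72, edgeR adjusted p = 0.00585). Leaving out Tet-TKO library 1, 2 or 3 or either WT host library ended this call (log2 fold changes -7.01 to -4.14, edgeR adjusted p up to 0.107), and Klf1 did not pass the low-count filter with doublets removed or without correction between libraries. Klf1 had 2 UMIs in all 4 Tet-TKO libraries together and 37 in the WT host libraries, a ratio of WT host over Tet-TKO of 32.8 (95% interval of the counts 8.45 to 281). Gata1 had 7 and 30 UMIs, a ratio of 7.59 (3.27 to 20.5; log2 fold change -2.83, edgeR adjusted p = 0.0259).

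In endothelium-like cells Gata1 and Klf1 were called, 2 of 7 members tested against 1.08% of all genes. Gata1 was at 0.317, 0.304, 0 and 0 CPM against 4.93 and 11.6 CPM (log2 fold change -4.76, SE 0.72, edgeR adjusted p = 0.00363). Klf1 was at 0, 0, 0 and 2.56 CPM against 4.93 and 11.6 CPM (-5.49, SE 0.94, edgeR adjusted p = 0.00745), which is 1 UMI against 47. Hemgn had 0 UMIs against 37, at least 16.8-fold lower when 3 counts over the group are taken as the floor. No other tested member was called. Zfpm1 was at 39.0, 27.4, 29.8 and 53.7 CPM against 57.1 and 66.2 CPM, without overlap (-0.82, SE 0.21, edgeR adjusted p = 0.0807). Tal1 was at 30.8, 21.3, 40.7 and 46.0 CPM against 41.4 and 52.3 CPM, and Gata2 at 19.7, 14.0, 18.9 and 23.0 CPM against 24.6 and 22.5 CPM, both with overlap. Lmo2, which endothelium also uses, was at 221, 219, 256 and 161 CPM against 198 and 137 CPM, and Lyl1 at 40.0, 42.0, 41.5 and 69.0 CPM against 41.1 and 44.1 CPM, both with overlap. Globin moved with the called genes: Hbb-bh1 was at 4.37 to 45.3 CPM in Tet-TKO and 1023 and 2655 CPM in WT host endothelium-like cells, and at 1.56 to 52.3 against 636 and 973 CPM in haematoendothelial progenitor-like cells. In brain and spinal cord-like cells, which should lack Klf1 and Gata1, Hbb-bh1 was at 2.39 to 92.1 CPM against 223 and 388 CPM and Gata1 at 0 to 0.602 CPM against 1.54 and 1.51 CPM. Klf1 in those cells was at 0.124 to 0.666 CPM in Tet-TKO and at 0.769 and 2.10 CPM in WT host libraries. For Klf1 and Gata1 these WT host levels were below the 4.93 and 11.6 CPM of WT host endothelium-like cells. With the levels of those cells subtracted as ambient counts, 0 members were called in endothelium-like cells. The share of all genes called in that fit is not given, and the part of free RNA in the calls was not tested. Leaving out WT host library 2 or Tet-TKO library 1 or 2 ended both calls there, and leaving out WT host library 1 or Tet-TKO library 4 ended that of Klf1.

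The effect of genotype on a member was compared between classes by the interaction term of edgeR, with libraries as blocks, and a difference passed at an adjusted p of at most 0.01 and an absolute size of at least 1. Between erythroid-like and blood progenitor-like cells 3 members differed, against 3.15% of all genes: Hemgn by -2.76 (SE 0.56, edgeR adjusted p = 0.00210), Tal1 by -1.09 (SE 0.22, edgeR adjusted p = 0.00164) and Lyl1 by -1.69 (SE 0.37, edgeR adjusted p = 0.00393), each with the more negative value in erythroid-like cells. This comparison used 4 libraries. For Klf1 the difference was -0.69 (SE 0.27, edgeR adjusted p = 0.140), so a larger effect on Klf1 in erythroid-like cells was not shown. Between haematoendothelial progenitor-like and blood progenitor-like cells 2 members differed, against 0.516% of all genes, Gata1 by -2.56 (edgeR adjusted p = 0.00757) and Klf1 by -3.86 (edgeR adjusted p = 0.00172). Tal1, at -0.91 (SE 0.16, edgeR adjusted p = 0.00290), was under the minimum size. Between endothelium-like and blood progenitor-like cells 3 passed the test, against 0.509% of all genes. Gata1 had a difference of -4.43 (edgeR adjusted p = 0.000262) and Klf1 one of -4.64 (edgeR adjusted p = 0.00526), on 2 and 1 Tet-TKO UMIs in endothelium-like cells. For Hemgn the difference has no measurable size because Tet-TKO endothelium-like cells held 0 UMIs of it.

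In myeloid-like cells 0 of 9 members tested were called by edgeR, against 0.468% of all genes, and 4 had an unadjusted p under 0.05, against 10.8% of all genes. Gata1 was at 39.7, 22.4 and 51.2 CPM in Tet-TKO libraries 1 to 3, whereas WT host libraries had 91.6 and 79.9 CPM (-1.17, SE 0.26, edgeR adjusted p = 0.0627), without overlap. Gfi1b was at 32.3, 29.0 and 57.3 CPM against 62.1 and 90.0 CPM (-1.01, SE 0.27, edgeR adjusted p = 0.140). Over the 26 other classes, 59 tests of members gave 6 calls, all lower. Of these, 4 were in mesenchyme-like cells, against 0.991% of all genes, where Klf1 was at 0 to 1.32 CPM against 11.6 and 8.23 CPM and Hemgn was at 0 in every Tet-TKO library against 6.45 and 7.72 CPM; Gfi1b and Zfpm1 were the others. Klf1 was also called in cardiomyocyte-like cells (0.761% of all genes), at 0 to 1.01 CPM against 8.04 and 8.27 CPM. Hbb-bh1 moved with these calls, at 2.85 to 170 CPM against 1612 and 1450 CPM in mesenchyme-like cells and 1.19 to 25.3 against 1121 and 1606 CPM in cardiomyocyte-like cells. With ambient counts subtracted, 3 of the 6 calls were kept. The part of free RNA was not tested further. The last call was Lmo2 in the unnamed cluster 12 (0.705% of all genes), at 28.4 to 41.3 CPM against 79.0 and 101 CPM (-1.41, SE 0.18, edgeR adjusted p = 0.00329). Leaving out Tet-TKO library 3 left 0 calls of members in these 3 classes, and calls were also lost without either library of WT host cells. The share of all genes called in these fits is not given, so the losses are no result about the members.

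The share of cells with a UMI of a member was compared after each cell had been thinned to 5000 UMIs. In blood progenitor-like cells Klf1 was found in 19.6%, 19.2%, 10.3% and 15.8% of Tet-TKO cells, against 28.4% and 37.5% of WT host cells. At the same depth, brain and spinal cord-like cells had it in none of the Tet-TKO and in 0.394% and 1.12% of the WT host libraries' cells, so the shares are above background. The groups did not overlap, and the exact two-sided permutation test gave p = 0.133, the smallest that 4 against 2 libraries allow (adjusted p = 0.476 over 50 combinations of member and class). Tal1 was found in 41.5%, 46.6%, 51.3% and 47.4% of Tet-TKO cells, against 39.5% and 37.5% in WT host libraries (exact permutation p = 0.133, adjusted p = 0.476). Gata1 was found in 39.3% to 48.7% against 45.7% and 71.9%, and overlapped. Groups did not overlap in 21 of the 50 combinations, and none had an adjusted p under 0.05, which the design cannot reach. Of the 42 combinations whose gene passed the low-count filter of edgeR in the class, 17 did not overlap, against 19.4% of all such combinations of gene and class. A blood progenitor-like cell held a mean of 3.06, 3.2, 3.1 and 3.11 of the 10 members in Tet-TKO libraries, against 3.1 and 3.56 in WT host libraries, and 5 or more members stood in 12.8% to 15.8% against 14.8% and 18.8% of cells. Without thinning, Klf1 was in a mean of 60.3% of this class's Tet-TKO cells, against 62.0% for WT host, where Tet-TKO libraries 3 and 4 were sequenced deepest.

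At E7.5 the genotypes had 1 library each, which allows no test. In whole libraries Gata1 was at 1.30 CPM in Tet-TKO and 20.1 CPM in WT host cells, Klf1 at 0.456 and 6.77 CPM, and Hemgn at 0 and 0.261 CPM. The marker rule gave the erythroid name to cluster 10 of this stage, but the markers of blood progenitors were raised in it as well, Cited4 and Itga2b stood beside Hbb-y among its leading genes, and its median globin content of 0.0815% of UMIs in WT host cells was below the 1.19% and 1.64% of blood progenitor-like cells at E8.5, so it is called by its number. The Tet-TKO library held 6 cells of cluster 10 and the WT host library 445. In the 6 Tet-TKO cells Gata1 was at 151 CPM (exact 95% Poisson interval 89.3 to 238), against 177 CPM (168 to 187) in WT host cells. Klf1 had 0 UMIs there, an upper bound of 30.9 CPM, against 83.3 CPM (76.8 to 90.2), and Gata2 was at 142 CPM (82.9 to 228) against 74.7 CPM (68.6 to 81.2). The interval of Gata1 thus contained the WT host value, while those of Klf1 lay below and of Gata2 above it. These intervals cover counting error only.

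The haematoendothelial progenitor-like class held 156 Tet-TKO cells at E7.5, against 258 of WT host origin. There 9 of the 10 members were lower in the Tet-TKO library, against 59.7% of all genes with at least 10 UMIs, and 5 of these had intervals that did not overlap, against 6.95% of all such genes. Hemgn was at 0 in both. Gata1 was at 19.6 CPM (15.5 to 24.5) against 35 CPM (29.4 to 41.3), Gata2 at 69.9 (61.9 to 78.6) against 120 CPM (109 to 131), and Gfi1b at 9.05 (6.34 to 12.5) against 29.4 CPM (24.3 to 35.3). Tal1 was at 122 (111 to 133) against 166 CPM (154 to 179), and Zfpm1 at 93.8 (84.5 to 104) against 145 CPM (134 to 158). Lmo2, at 360 CPM (342 to 379) against 386 CPM (367 to 406), had overlapping intervals, as had Klf1, Nfe2 and Lyl1. A difference between 2 libraries cannot be told apart from one between genotypes here.

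**Figure D5:**
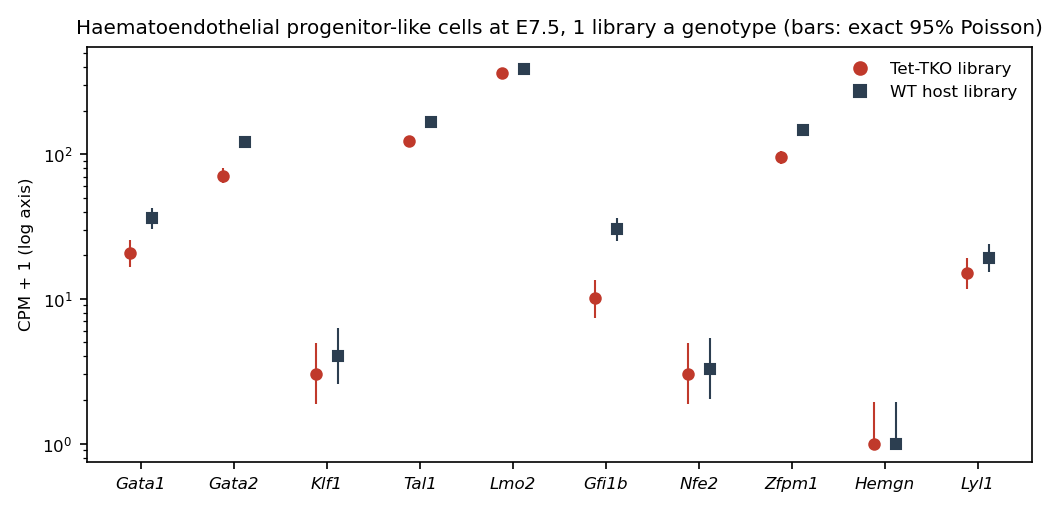
Levels of the 10 members (CPM + 1, log axis) in haematoendothelial progenitor-like cells of the single Tet-TKO and the single WT host library at E7.5, with exact 95% Poisson intervals of the UMI counts. In haematoendothelial progenitor-like cells Gata1 was at 19.6 against 35 CPM and Gfi1b at 9.05 against 29.4 CPM.

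The genes around the network were taken as 3 lists. Of 24 target genes, for haem synthesis, embryonic globins, iron uptake and the red cell membrane, all were tested in erythroid-like cells, and 5 were called lower, against 0.501% of all genes, and none higher. With 1 library left out the count ranged from 4 to 20: it was 8 without Tet-TKO library 2, 20 without Tet-TKO library 3 and 12 without WT host library 1. Each of these fits holds 1 library of a genotype, which is assumed to vary like the other genotype. The share of all genes called in these fits is not given, so their counts are no result about the list. The median log2 fold change of the list was -1.38, against -0.00483 over all genes. Alas2, the first enzyme of erythroid haem synthesis, was at 62.0 and 89.6 CPM in Tet-TKO libraries 2 and 3, whereas WT host libraries had 234 and 321 CPM (-2.23, SE 0.25, edgeR adjusted p = 0.00225). The embryonic globin genes Hba-x (-1.89, SE 0.26, edgeR adjusted p = 0.00569) and Hbb-bh1 (-1.86, SE 0.20, edgeR adjusted p = 0.00169) and the mitochondrial transporter Abcb10 (-1.62, SE 0.20, edgeR adjusted p = 0.00359) were also called. These values rest on the same erythroid-like sums as those of the members. In blood progenitor-like cells 0 of 21 and in cluster 15 0 of 23 tested target genes were called, with medians of -0.11 and 0.15, and 2 and 12 had an unadjusted edgeR p under 0.05 (5.26% and 17% of all genes). In haematoendothelial progenitor-like cells 4 of 14 were called lower, against 1.01% of all genes: Hba-x (-6.07), Alas2 (-5.91), Hbb-bh1 (-5.28) and the carbonic anhydrase gene Car2 (-1.78, SE 0.19, edgeR adjusted p = 0.000655). Without WT host library 1 or 2 the count was 1 or 0. Hba-x was also lower in brain and spinal cord-like cells, at 2.82 to 66.8 CPM in Tet-TKO libraries against 292 and 702 CPM, and the part of free RNA in these calls was not tested. Car2 was at 18.9, 19.1, 15.2 and 14.8 CPM in Tet-TKO libraries, all below the 52.2 and 69.7 CPM of the WT host libraries. In endothelium-like cells Hba-x (-8.08), Alas2 (-6.52), Hbb-bh1 (-6.49) and the erythropoietin receptor gene Epor (-2.43) were 4 of 14 called, against 1.08% of all genes, and in myeloid-like cells Hba-x (-6.18) was 1 of 17, against 0.468%. The endothelium-like count was 3 without Tet-TKO library 1 or 2 and 5 without Tet-TKO library 3 or 4. The part of free RNA in the endothelium-like and myeloid-like calls was not tested either.

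Of the 17 complex partners, which include Ldb1, the bridge of the GATA1 and TAL1 complex, the E proteins Tcf3 and Tcf12 and the small Maf genes, 0 were called in each of the 6 blood and endothelial classes. Their median log2 fold change was 0.07 in blood progenitor-like and 0.00401 in erythroid-like cells, and 0 and 6 of the 17 had an unadjusted edgeR p under 0.05 (5.26% and 26.6% of all genes). Of the relatives of the members, such as other GATA, KLF and NFE2 family genes, 10 of 14 were tested in erythroid-like cells and 1 was called, Klf6, against 1.89% of all genes. This Krüppel-like factor was at 44.8 and 52.1 CPM in Tet-TKO libraries 2 and 3, whereas WT host libraries had 12.1 and 9.71 CPM, and rose by 1.83 (SE 0.23, edgeR adjusted p = 0.00396). No relative was called in the other 5 classes.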

How the data were processed

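Sorted cells of chimaeras were profiled with 10x Genomics 3′ chemistry in 8 libraries. The authors mapped the reads with Cell Ranger to mm10 with tdTomato added and deposited UMI counts of each gene in each barcode as raw, unnormalized values; the matrix header names software version 3.1.0. No column of other samples was present (0).

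Barcodes under 1500 UMIs, or over 30% mitochondrial or 35% ribosomal UMIs, were dropped. Clusters were made in Python 3.11.15 (leidenalg 0.10.2, scanpy 1.11.5, scikit-learn 1.9.0, anndata 0.12.19, scipy 1.17.1, numpy 2.4.6, pandas 2.3.3), on 2500 variable genes and 50 principal components corrected by 20 mutual nearest neighbours, with a graph of 15 neighbours and Leiden resolution 2. The members, the 3 pathway lists and tdTomato (68 genes with related ones) were left out of clustering. A class name needed at least 3 raised markers. Doublets were removed, at 0.8% per 1000 barcodes, only as an alternative.

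Counts were summed per class and library (at least 10 cells, and at least 2 libraries of each genotype except where 1 was left out, in which case a lone library was assumed to vary like those of the other genotype) and tested with edgeR 4.0.16 in R 4.3.3 (filterByExpr, TMM, glmQLFit, glmQLFTest) over all genes, with Benjamini-Hochberg adjustment. A call was an adjusted p of at most 0.01 and an absolute log2 fold change of at least 1. CPM and all folds were computed from the deposited counts. Alternatives were DESeq2 1.42.0, its size factors, no filter, libraries left out or summed, a replicate block, ambient subtraction, other clusterings, cells with matching tdTomato UMIs, doublet removal, 3000 UMIs and cells thinned to 5000 or 10000 UMIs. Cluster 15, the joined blood classes, 5 cells per sum, cluster 15 within the globin ranges and the alternatives for calls outside the blood classes were chosen after seeing the data. Intervals of levels, count ratios and shares of cells are exact at 95% and cover counting error only. The 95% intervals of log2 fold changes are not exact and rest on the SE of the edgeR fit between libraries.

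The members and lists were chosen with earlier results of these data known. All 10 members are named; of each list, up to 4 called genes per class with the largest fold change and no overlap; and for each member the 2 genes of highest correlation with at least 20 CPM in a class. Some genes that this rule gives are not reported here. Promoter sequences are from RefSeq (GRCm38.p6) and gene positions from GENCODE M21 of mm10. Levels of genes are compared between cells and not between genes.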

Additional observations from a re-analysis of the deposited data

Results flagged for a closer look

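Among 40 groups of 4 Tet-TKO libraries with at least 40 UMIs, 2 held a library far from the others, where chance gives about 1 in 20. Lyl1 in endothelium-like cells was at 69.0 CPM in Tet-TKO library 4, with 16 cells, and at 40.0 to 42.0 CPM in the other 3. Gata1 in the joined blood classes was at 114 CPM in Tet-TKO library 1 and at 109 CPM in the other 3, which lie close together. Neither moves a call of a member.

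The effect of genotype differed between classes for 5 members. Between erythroid-like and blood progenitor-like cells the log2 fold changes differed by -2.76 for Hemgn, -1.09 for Tal1 and -1.69 for Lyl1, with 2 Tet-TKO and 2 WT host libraries. Over all 4 libraries, 35 Tet-TKO erythroid-like cells lay in cluster 34, at a median globin content of 1.42%, whereas WT host cells lay mostly in cluster 0. The Hemgn level of WT host blood progenitor-like cells rests on 7 UMIs. The part of these limits was not tested. Between haematoendothelial progenitor-like and blood progenitor-like cells the log2 fold changes differed by -2.56 for Gata1 and -3.86 for Klf1, on 7 and 2 Tet-TKO UMIs in the former class. Between endothelium-like and blood progenitor-like cells they differed by -4.43 for Gata1 and -4.64 for Klf1, on 2 and 1 Tet-TKO UMIs in endothelium-like cells. In the progenitor and endothelial classes these genes were near 0 in Tet-TKO cells and low in WT host cells, where globin transcripts were higher as well. The part of free RNA in these differences was not tested.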

How the results depend on the processing

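Of 968 values of members under an alternative setting, 853 kept direction and call, 53 lost the call, 25 gained one and 37 changed sign. The 17 calls among them had 193 alternatives, of which 140 kept the call, 53 lost it and 0 reversed. The 6 calls in mesenchyme-like cells, cardiomyocyte-like cells and cluster 12 were checked separately, after seeing the data. Their sign did not change, 6 were kept with DESeq2, 5 with paired sums and 3 with ambient counts subtracted, and calls of members there numbered 11 with the replicate block and 0 to 5 with 1 library left out. Klf1 and Hemgn in the joined blood classes kept theirs under all 12 alternatives (log2 fold changes -1.88 to -1.66 and -3.75 to -2.71). These sums were mostly blood progenitor-like cells in Tet-TKO and mostly erythroid-like cells in WT host libraries, and the part of this mix was not tested. Klf1 in endothelium-like cells lost its call in 11 of 17 (adjusted p up to 0.514).

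Called members in erythroid-like cells (3) were 5 with DESeq2, 7 without the filter, 1 with paired sums, 0 with at least 5 cells per sum and 2 to 6 with 1 library left out. In haematoendothelial progenitor-like cells (1) they were 3 without the filter, 2 with the replicate block, 0 without correction between libraries, 0 with doublets removed and 0 to 1 with 1 library left out, lost when Tet-TKO library 1, 2 or 3, or either library of WT host cells, was left out. In endothelium-like cells (2) they were 1 with DESeq2, 4 without the filter, 0 with paired sums, 0 with ambient counts subtracted, 0 at resolution 1, 0 without correction, 1 with matching tdTomato UMIs, 0 with doublets removed and 0 to 2 with 1 library left out. In whole libraries (6) they were 9 with DESeq2, 0 with paired sums, 8 with the replicate block and 2 to 4 with 1 library left out. Under 1% globin (0) the count was 1 with cluster 15 included. The replicate block gave 3 in the joined blood classes (2) and did not change the count in blood progenitor-like cells or cluster 15. The authors compared cell type proportions of each Tet-TKO sample with those of a matching WT host. The labels do not say which libraries match, or whether those with the same number belong together, and the main tests took libraries as unpaired. The correlation of the deviations of libraries with the same number was 0.000382 to 0.0996 over 4 classes. Combinations of member and class without overlap (21) were 12 without thinning. Counts under alternatives, here and in the neighbouring paragraphs, are given without the share of all genes in the same fit. Their rise or fall is therefore no result about the members.

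With 1 library left out, called target genes ranged from 0 to 4 in haematoendothelial progenitor-like cells, 0 to 1 in cluster 15, 4 to 20 in erythroid-like cells (8 without Tet-TKO library 2, 20 without Tet-TKO library 3, 12 when the first library of WT host cells was left out) and 2 to 5 in endothelium-like cells. Complex partners ranged from 0 to 1 and relatives from 1 to 3 in erythroid-like cells, and relatives from 0 to 1 in endothelium-like cells. For these changes the cause was not tested. In erythroid-like cells matching tdTomato and doublet removal each left 1 Tet-TKO library of at least 10 cells and were not run, and no replicate block could be fitted because the genotypes share 1 library number there. Where 1 library of a genotype remained, it was assumed to vary like those of the other.

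Among the 968 values, signs changed only for members without a call. With 1 library left out, the log2 fold change of Nfe2 in erythroid-like cells ranged from -0.28 to 0.32, of Gata2 and Gfi1b in blood progenitor-like cells from -0.48 to 0.26 and from -0.47 to 0.0051, of Lyl1 in endothelium-like cells from -0.038 to 0.11, of Zfpm1 in cluster 15 from -0.062 to 0.081, and of Tal1, Lmo2 and Zfpm1 in the joined blood classes from -0.044 to 0.15, from -0.16 to 0.18 and from -0.12 to 0.019. Under the other settings, Nfe2 in erythroid-like cells (-0.01) was 0.0096 with ambient counts subtracted, 0.10 without correction, 0.0048 at 3000 UMIs and 0.048 at 5 cells. Gata2 in blood progenitor-like cells (-0.04) was 0.0018 without the filter, 0.25 with the replicate block, 0.0093 with matching tdTomato and 0.027 with doublets removed, and Lyl1 there was -0.46 at resolution 1. Lyl1 in endothelium-like cells (0.06) was -0.0086 with the block, -0.10 at resolution 1, -0.017 without correction and -0.10 with matching tdTomato. Zfpm1 in cluster 15 (0.02) was -0.070 without the filter and -0.049 at 5 cells with matching tdTomato. In the joined blood classes Tal1 was -0.087 with the block, and Lmo2 was -0.047 without the filter and -0.0072 with paired sums. With ranges set on beta-chain genes Gfi1b and Nfe2 were 0.18 and 0.39 under 1% globin and Lyl1 -0.23 at 1 to 10%. With cluster 15 included Nfe2 was 0.31 under 1% and Lmo2 -0.12 at 1 to 10%.

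Depth limits these values. Tet-TKO libraries held 7 to 40 erythroid-like cells, and 2 of the 4 had the 10 cells that the test needed.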

Other observations

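The breadth of the network per cell was also counted outside the blood progenitor-like class, as the mean number of the 10 members with a UMI in a cell thinned to 5000 UMIs. Haematoendothelial progenitor-like cells at E8.5 held 1.47, 1.32, 1.82 and 1.63 members in Tet-TKO libraries and 1.74 and 1.99 in WT host libraries, which overlapped. Cluster 15 held 3.70, 3.27 and 3 members against 3.47 and 3.62, and also overlapped. Myeloid-like cells held 2.43, 2.46 and 2.64 members in the 3 Tet-TKO libraries of at least 10 such cells, below 2.75 and 3.04 for the WT host. At 10000 UMIs they held 3.68, 3.76 and 4.36 members against 3.89 and 4.47, and without thinning 5.13, 4.60 and 5.75 against 5.24 and 5.04, both with overlap. In erythroid-like cells 1 Tet-TKO library, library 2, had at least 10 cells of 5000 UMIs, with 2.47 members against 3.31 and 3.58. At E7.5, haematoendothelial progenitor-like cells held 1.95 members in Tet-TKO cells, against 2.51 in WT host cells. Gata2 was found in 29.2% of these Tet-TKO cells (exact 95% binomial interval 22.2 to 37.1) and 45.5% of WT host cells (39.1 to 52.0), Gfi1b in 3.25% (1.06 to 7.41) and 9.92% (6.46 to 14.4), and Gata1 in 7.79% (4.09 to 13.2) and 12.4% (8.52 to 17.2). At this depth the intervals of Gata2 did not overlap, and those of Gfi1b and Gata1 did. At 10000 UMIs the intervals of Gfi1b lay apart as well (7.58%, 3.69 to 13.5, against 20.6%, 15.4 to 26.6), and those of Gata1 overlapped. Without thinning those of Gfi1b lay apart (9.62%, 5.48 to 15.4, against 22.9%, 17.9 to 28.5), and those of Gata2 overlapped (58.3%, 50.2 to 66.2, against 71.3%, 65.4 to 76.8). With 1 library of each genotype there is no test of these differences.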
